A study of Mus musculus with 4 samples.

Results

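Enzymes of the alcohol dehydrogenase, aldehyde dehydrogenase, flavin-containing monooxygenase, glutathione S-transferase and carbonyl reductase families, together with the hydrolase gene Cmbl, were followed in mouse bone marrow 8 h after lipopolysaccharide (LPS). The members were selected by gene symbol, as all genes whose symbol began with Fmo, Adh, Aldh, Gst or Cbr followed by the family's numbering, and each gene was represented by its brightest probe set. Cmbl was added by name. The group was put forward with the LPS against PBS differences in view, since Fmo2, Cmbl and Adh1 stood at positions 1, 8 and 10 among the falls of all genes. The differences of these 3 genes are therefore given as a description with no p-value. The rule gave 57 members of 19938 genes: 5 Fmo, 7 Adh, 21 Aldh, 19 Gst and 4 Cbr genes and Cmbl. Gsta1, Gsta2 and Gstp2 had no probe set of their own and are not among the members.

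The study profiled bone marrow cells of C57BL/6N mice, with no genotype other than this strain given, on Affymetrix GeneChip Mouse Gene ST arrays. Mice in the control group had 1 intraperitoneal injection of phosphate-buffered saline (PBS replicates 1 and 3), and mice in the other had 50 µg LPS, an equal mixture from Escherichia coli K12 and Salmonella minnesota (LPS replicates 1 and 2). All marrow was taken 8 h after injection. The labels give no age, and do not say whether a replicate was 1 mouse or a pool, so the spread between replicates may be partly technical.

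These enzymes chemically modify reactive or fat-soluble compounds so that they can be excreted. Flavin-containing monooxygenases add oxygen to nitrogen and sulfur atoms, alcohol dehydrogenases turn alcohols into aldehydes, aldehyde dehydrogenases turn aldehydes into acids, carbonyl reductases reduce aldehydes and ketones, and glutathione S-transferases attach the tripeptide glutathione. The same families also act on the body's own compounds, among them vitamin A, folate, formaldehyde and lipid peroxidation products. In bone marrow, removal of formaldehyde and acetaldehyde by Adh5 and Aldh2 is known to protect blood stem cells from DNA damage, and high aldehyde dehydrogenase activity is used to sort such cells.

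The detoxification genes stood lower after LPS more often than higher. Values are log2 expression values, and a difference is the LPS mean minus the PBS mean. Of the 57 members, 45 (78.9%) had a negative difference, as did 52.5% of all genes, and the median was -0.18, against -0.01 over all genes. The threshold was 0.05 on the p-value of limma after Benjamini-Hochberg adjustment across the 19938 genes. By this rule 8 of 57 members were lower, where 1.27% of all genes were lower. Those higher numbered 2, against 2.39% of all genes. In 30 members both LPS arrays lay below both PBS arrays, as in 24.5% of all genes, and in 6 both lay above, as in 20.4% of all genes. Without Fmo2, Cmbl and Adh1 the median of the remaining 54 was -0.17, with 5 lower and 2 higher. The counts are a description of a group proposed on this same contrast. Which members passed changed with the array left out. The median of the members ran from -0.197 without LPS replicate 1 to -0.116 without PBS replicate 3. Over all genes the median was -0.003 and -0.017 in these fits. When all probe sets entered the fit, 3 members were past the threshold, all of them lower. These are the genes that had prompted the group, and the calls of the other members ended. In that fit 245 of the 19938 genes were higher and 45 lower. Without moderation of the variances 0 of the 57 members passed, as did 0 of the 19938 genes. Of the members, 9 then had an unadjusted p under 0.05.

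**Figure D1:**
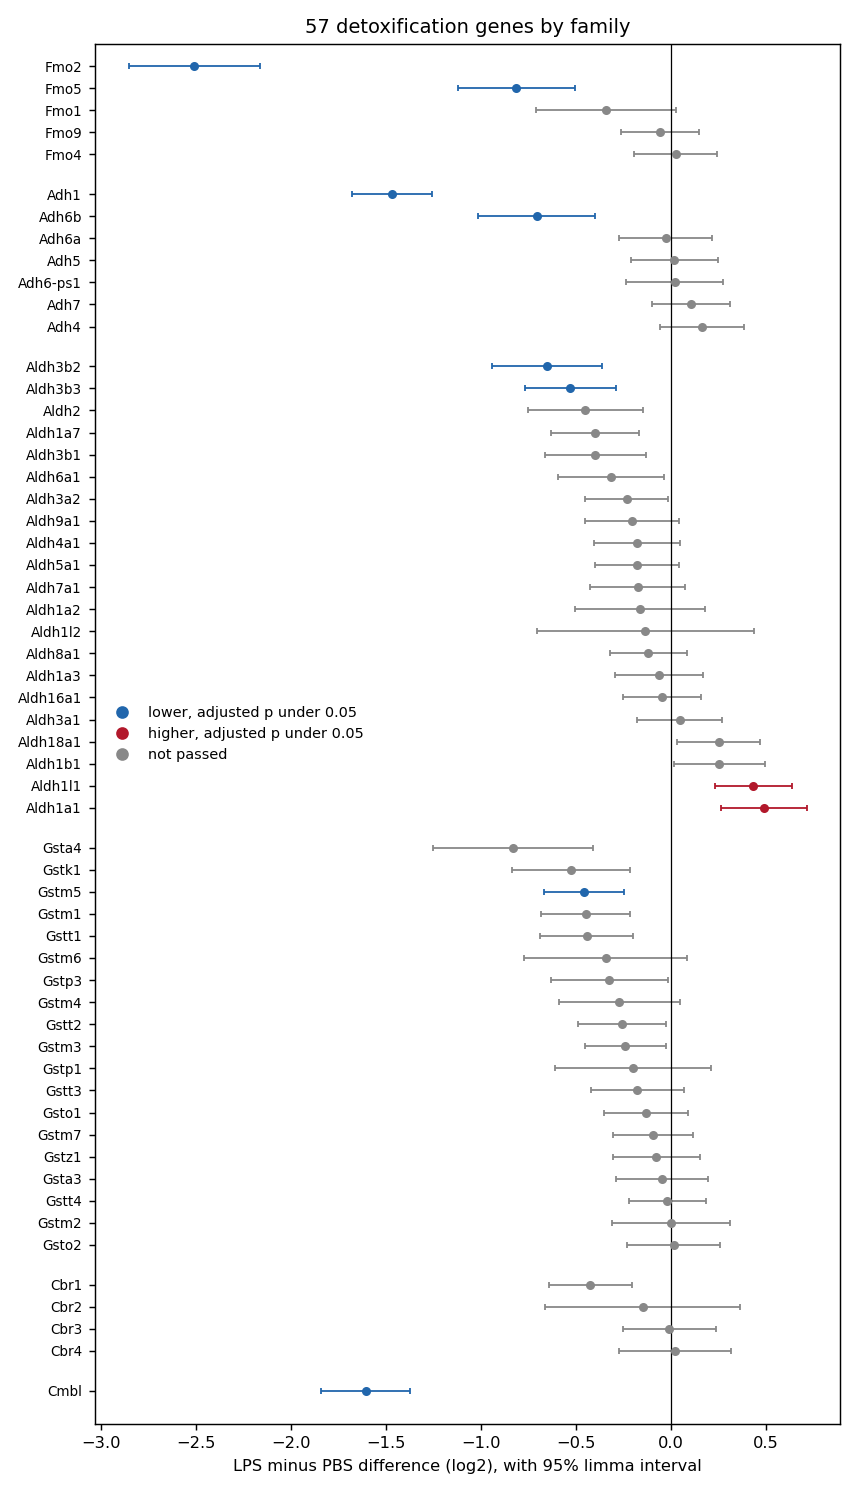
Difference between LPS and PBS (log2, horizontal axis) of each of the 57 genes, grouped by family, with points at the limma estimate and bars for the 95% interval; n = 2 arrays a group. Fmo2, Cmbl and Adh1 stand apart at -2.51, -1.61 and -1.47, most other genes lie between -0.9 and 0.3, and Aldh1l1 and Aldh1a1 are the red points to the right of 0.

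The difference was largest in Fmo2, a monooxygenase known mainly from lung. PBS replicate 1 had 9.42 and replicate 3 had 9.86, while LPS replicate 1 had 7.21 and replicate 2 had 7.05; values below follow this order. The groups lay far apart, and the LPS arrays differed less from each other than the PBS arrays did. The means were 9.64 ± 0.31 and 7.13 ± 0.12 (SD, n = 2 each), a difference of -2.51 (SE 0.149, 95% interval -2.86 to -2.16) that made Fmo2 5.70-fold lower after LPS.

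Cmbl encodes a cytosolic hydrolase of the carboxymethylenebutenolidase type that cleaves ester bonds in some prodrugs. It had 8.43 and 8.57 in the PBS arrays and 6.97 and 6.82 in the LPS arrays, so the groups did not overlap. The difference was -1.61 (SE 0.100), 3.05-fold lower. Adh1, the class I alcohol dehydrogenase that oxidises ethanol and retinol, had 8.45 and 8.49 after PBS and 7.05 and 6.94 after LPS. Its replicates lay close together in both groups, and the difference was -1.47 (SE 0.0905), 2.77-fold lower. The LPS means of these 3 genes lay between 6.89 and 7.13, close to the lower quartile of all gene means, 6.69. The files used hold no measure of background, so the sizes of these falls are uncertain at the low end.

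**Figure D2:**
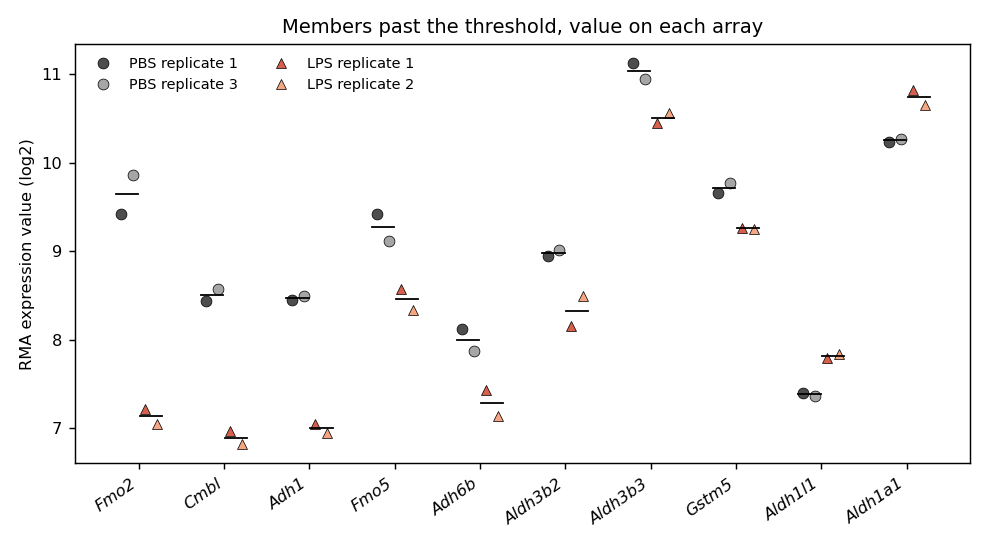
Expression values (log2 RMA, vertical axis) of the 10 members past the threshold on each array, with circles for PBS, triangles for LPS and black lines at the group means (n = 2). In all 10 genes the groups are separate, with LPS below PBS in 8 and above it in Aldh1l1 and Aldh1a1. The genes were picked by the threshold on these same arrays, so the separation is no further evidence.

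The bases just upstream of the RefSeq transcript starts of the genes with the largest falls, of Gstm5 and of Aldh1a1 are shown with the motif matches that a search found in them. Each run holds the 250 bases before the start in build GRCm38.p6, on the gene's strand. Capitals mark matches to any of 6 motifs searched on both strands: the antioxidant response element TGACNNNGC, the xenobiotic response element core GCGTG, the kappaB site GGGNNNNNCC, the glucocorticoid half-sites ACANNNTGT, the nuclear receptor half-site AGGTCA and the C/EBP site TTGCNNAA. The searched motifs can overlap one another. Fmo2 and Aldh1a1 have 2 listed starts each, and the run of the outer one is shown. The Cmbl run lies inside the span of the gene as annotated.
Fmo2 (chr1:162898759-162899008, minus strand): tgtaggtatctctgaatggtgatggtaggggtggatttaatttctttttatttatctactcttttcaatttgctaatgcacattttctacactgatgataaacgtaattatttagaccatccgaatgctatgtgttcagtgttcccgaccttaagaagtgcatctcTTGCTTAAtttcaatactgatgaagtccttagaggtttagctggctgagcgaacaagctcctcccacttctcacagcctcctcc
Adh1 (chr3:138277335-138277584, plus strand): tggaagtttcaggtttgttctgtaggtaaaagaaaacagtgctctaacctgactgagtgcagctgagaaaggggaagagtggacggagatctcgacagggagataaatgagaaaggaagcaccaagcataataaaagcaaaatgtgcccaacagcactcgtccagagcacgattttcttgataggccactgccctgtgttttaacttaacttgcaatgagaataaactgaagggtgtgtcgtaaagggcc
Cmbl (chr15:31568583-31568832, plus strand): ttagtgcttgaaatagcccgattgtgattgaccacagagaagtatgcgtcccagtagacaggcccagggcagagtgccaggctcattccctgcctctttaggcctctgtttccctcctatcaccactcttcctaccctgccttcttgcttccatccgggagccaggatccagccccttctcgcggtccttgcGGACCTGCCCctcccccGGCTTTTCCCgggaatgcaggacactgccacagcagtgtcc
Gstm5 (chr3:107895604-107895853, plus strand): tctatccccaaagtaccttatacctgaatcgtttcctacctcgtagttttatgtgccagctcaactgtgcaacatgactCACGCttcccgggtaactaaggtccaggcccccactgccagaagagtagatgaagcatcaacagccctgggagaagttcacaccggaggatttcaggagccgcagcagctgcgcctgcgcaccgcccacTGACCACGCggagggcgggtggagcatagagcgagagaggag
Aldh1a1 (chr19:20492333-20492582, plus strand): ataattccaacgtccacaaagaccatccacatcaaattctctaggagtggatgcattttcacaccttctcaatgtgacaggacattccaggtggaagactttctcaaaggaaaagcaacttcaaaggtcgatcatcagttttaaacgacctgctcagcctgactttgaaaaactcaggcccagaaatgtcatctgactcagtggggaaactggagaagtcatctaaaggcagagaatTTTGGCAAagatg

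In these runs Fmo2 held 1 C/EBP match, Cmbl 2 kappaB matches and Aldh1a1 1 C/EBP match, and Adh1 held none of the 6 motifs. The run of the inner Fmo2 start, not shown, held 1 nuclear receptor half-site and 1 C/EBP match. That of the inner Aldh1a1 start held none. Gstm5 held 1 antioxidant response element, which overlaps 1 of its 2 xenobiotic response element cores. Over the full windows of 300 bases, from 250 before to 50 after a start, 46 of the 57 members had an entry, among them 6 of the 8 lower members. The antioxidant response element was in 6 of the 46 (13%), against 14% of the 27025 genes in the RefSeq table, and Gstm5 was the only lower member with it. The xenobiotic response element core was in 14 (30.4%, against 35.2%), the kappaB site in 25 (54.3%, against 53.5%), the nuclear receptor half-site in 8 (17.4%, against 18.1%), the C/EBP site in 9 (19.6%, against 12.2%) and the glucocorticoid half-sites in 1 (2.17%, against 7.90%). A match describes the letters of the window and is not evidence of binding.

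Among the other monooxygenases, Fmo5, which mainly oxidises ketones, fell. It had 9.42 and 9.12 after PBS and 8.58 and 8.33 after LPS, without overlap. Its difference was -0.81 (SE 0.132), 1.76-fold lower with a limma adjusted p of 0.0162, and it passed with any 1 array left out. Fmo1 had 9.69 and 10.15 in the PBS arrays and 9.45 and 9.70 in the LPS arrays. These groups overlapped by a small margin, with a difference of -0.34 (95% interval -0.71 to 0.02, limma adjusted p = 0.348). Without PBS replicate 1 the difference was -0.57 and passed (limma adjusted p = 0.0329). Fmo4 and Fmo9 had means below the lower quartile of all genes and differences of 0.02 and -0.06.

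The Adh family was split. All 7 members lie in 1 run on chromosome 3, in the order Adh7, Adh1, Adh6a, Adh6b, Adh6-ps1, Adh4 and Adh5, each within 500 kb of the next. In this run only Adh1 and Adh6b were lower, and the other 5 had differences from -0.03 to 0.16 with intervals that held 0. Adh5, the glutathione-dependent formaldehyde dehydrogenase, had 9.89 and 10.05 after PBS and 10.03 and 9.95 after LPS. The arrays overlapped fully, and the difference was 0.02 (95% interval -0.21 to 0.24). Within each array the log2 difference of Adh1 minus Adh5 was -1.45 and -1.57 after PBS and -2.99 and -3.01 after LPS. Since Adh1 was among the genes that prompted the group and Adh5 hardly differed, this restates the fall of Adh1. It was not tested.

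Adh6b had 8.12 and 7.87 in the PBS arrays and 7.43 and 7.13 in the LPS arrays. The difference of -0.71 (SE 0.132, limma adjusted p = 0.0304) passed, but with LPS replicate 2 left out it did not (adjusted p = 0.0833). Its second probe set had 6.07 and 6.02 after PBS and 6.16 and 6.05 after LPS and so did not show the difference. With the mean of both probe sets the difference was -0.33 and did not pass (limma adjusted p = 0.181). The Adh6 genes are close copies, so the array may not separate them. Adh6-ps1 is annotated as a transcribed pseudogene.

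Aldehyde dehydrogenases changed in both directions, with 2 of 21 lower and 2 higher and a median of -0.18. Of all genes 1.27% were lower and 2.39% higher. The members that fell were Aldh3b2 and Aldh3b3, which act on fatty aldehydes. Aldh3b2 had 8.95 and 9.01 after PBS and 8.15 and 8.50 after LPS, with a difference of -0.65 (SE 0.124, limma adjusted p = 0.0317). Leaving out LPS replicate 1 ended the call (adjusted p = 0.0932). Aldh3b3 had 11.13 and 10.95 after PBS and 10.44 and 10.57 after LPS, with a difference of -0.53 (SE 0.102, limma adjusted p = 0.0340). The call ended when PBS replicate 1 (adjusted p = 0.0690) or LPS replicate 1 (adjusted p = 0.130) was left out. In both genes the LPS arrays lay below the PBS arrays.

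A probe set shared by Aldh3b2 and Aldh3b3, which cannot be assigned to either, showed a larger difference than the probe sets of each gene alone. It had 9.73 and 9.66 after PBS and 8.21 and 8.43 after LPS, a difference of -1.38 (SE 0.109, adjusted p = 0.00834 when limma was fitted to all 35556 probe sets). The 2 dimmer probe sets of Aldh3b3 differed by -0.70 and -0.59. The neighbouring Aldh3b1 had 10.80 and 10.90 after PBS and 10.59 and 10.31 after LPS, a difference of -0.40 that did not pass (limma adjusted p = 0.132). All 4 probe sets of Aldh3b2 and Aldh3b3 that hold a single symbol, the shared one and that of Aldh3b1 thus had LPS arrays below the PBS arrays.

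Aldh1a1 and Aldh1l1 rose. Aldh1a1, which makes retinoic acid from retinal and contributes to the enzyme activity used to sort stem cells, had 10.24 and 10.26 in the PBS arrays and 10.83 and 10.65 in the LPS arrays. The difference was 0.49 (SE 0.0969), 1.40-fold higher with a limma adjusted p of 0.0382. With PBS replicate 1 left out the adjusted p was 0.0592, and with LPS replicate 1 left out 0.193. Aldh1l1, a folate enzyme that oxidises formyltetrahydrofolate, had 7.40 and 7.37 after PBS and 7.79 and 7.84 after LPS, 1.35-fold higher (difference 0.43, SE 0.0868, limma adjusted p = 0.0395). Leaving out any 1 array ended its call, with adjusted p-values of 0.0551 (PBS replicate 1), 0.0643 (PBS replicate 3), 0.119 (LPS replicate 1) and 0.188 (LPS replicate 2). In both genes the LPS arrays lay above the PBS arrays.

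Aldh1a7, a close relative of Aldh1a1 and its neighbour on chromosome 19, differed in the other direction. It had 8.54 and 8.58 after PBS and 8.25 and 8.06 after LPS, so that both LPS arrays were below, with a difference of -0.40 (SE 0.0998) that did not pass (limma adjusted p = 0.0855). Within each array the log2 difference of Aldh1a1 minus Aldh1a7 was 1.70 and 1.69 after PBS and 2.57 and 2.59 after LPS, a shift of 0.89. The pair was singled out after its values were seen, and the shift was not tested.

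Aldh2, the mitochondrial enzyme that clears acetaldehyde, had 11.22 and 10.85 after PBS and 10.62 and 10.54 after LPS. The groups did not overlap, but the difference of -0.45 (SE 0.130) did not pass with all arrays (limma adjusted p = 0.132). Without PBS replicate 3 it was -0.64 and passed (adjusted p = 0.00851). Among the remaining members of the family, Aldh18a1, an enzyme of proline synthesis, and Aldh1b1 had differences of 0.25 each with both LPS arrays above the PBS arrays, and neither passed. Others were negative with no overlap but did not pass, from Aldh6a1 (-0.32) and Aldh3a2 (-0.23) to Aldh8a1 (-0.12). The second enzyme of retinoic acid synthesis, Aldh1a2, had -0.16 with overlapping groups, and Aldh1a3 had -0.06.

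Of the glutathione S-transferases, 18 of 19 had a negative difference (Gstm2 among them, at 0.00), against 52.5% of all genes. In 11 both LPS arrays lay below both PBS arrays, against 24.5% of all genes. Past the threshold was 1, Gstm5, where 1.27% of all genes were lower. The family median was -0.24. Gstm5, a member of the mu class, had 9.66 and 9.77 after PBS and 9.26 and 9.25 after LPS. Its difference was -0.46 (SE 0.0900, limma adjusted p = 0.0366), 1.37-fold lower. Its call ended when PBS replicate 3 (adjusted p = 0.0703), LPS replicate 1 (adjusted p = 0.119) or LPS replicate 2 (adjusted p = 0.141) was left out.

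Several further transferases lay close to the threshold. Gsta4, which conjugates lipid peroxidation aldehydes, had 8.36 and 8.92 in the PBS arrays and 7.68 and 7.94 in the LPS arrays. The difference of -0.83 (SE 0.181) was larger than that of Gstm5, but its PBS arrays lay further apart and it did not pass (limma adjusted p = 0.0530); it passed in 6 of the 11 alternatives. Gstm1 had 10.60 and 10.81 after PBS and 10.27 and 10.24 after LPS, without overlap. Its difference was -0.45 (SE 0.102, limma adjusted p = 0.0611), and it passed without PBS replicate 1 (adjusted p = 0.0184) and with an intensity trend and robust estimation (adjusted p = 0.0470). Gstk1 had a difference of -0.53 (limma adjusted p = 0.0893) and Gstt1 of -0.44 (limma adjusted p = 0.0717).

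Gstp1, the pi-class transferase, varied as much between replicates as between groups. It had 11.08 and 10.56 after PBS and 10.47 and 10.76 after LPS, a difference of -0.20 (95% interval -0.61 to 0.21). The probe sets shared by Gstp1 and Gstp2 had differences of -0.21 and -0.22, and those shared by Gsta1, Gsta2 and a pair of unnamed gene models lay between -0.03 and 0.09. The 7 Gstm genes stand side by side on chromosome 3. In chromosome order their differences were -0.46 for Gstm5, -0.09 for Gstm7, -0.35 for Gstm6, -0.24 for Gstm3, 0.00 for Gstm2, -0.45 for Gstm1 and -0.27 for Gstm4. They are close copies, so signal may be shared among them, and the dimmer probe set of Gstm3 had a difference of 0.06.

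**Figure D3:**
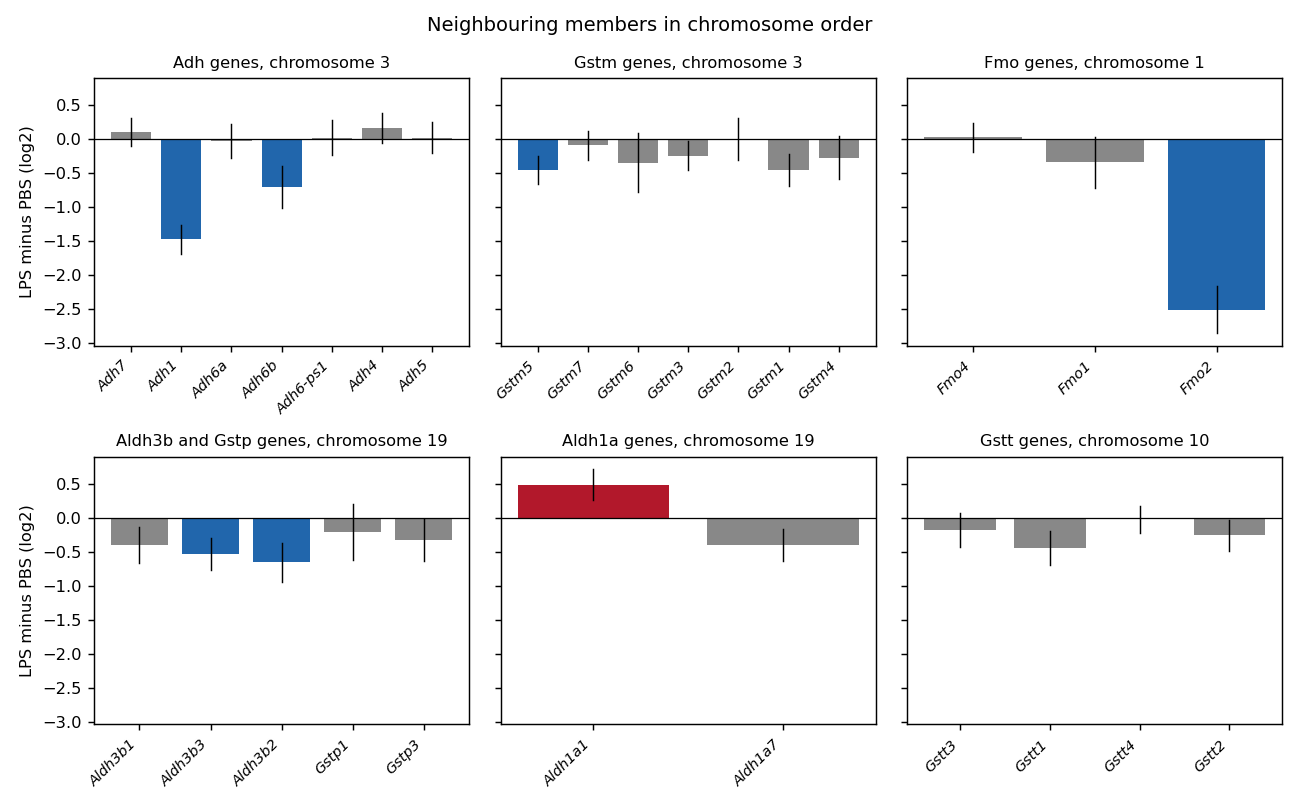
Difference between LPS and PBS (log2, vertical axis) for members that neighbour one another, in chromosome order and not to scale along the chromosome; lines are 95% limma intervals, blue and red mark lower and higher genes past the threshold, and grey marks the others. In the Adh run only Adh1 (-1.47) and Adh6b (-0.71) stand below, in the Fmo run Fmo4 (0.02), Fmo1 (-0.34) and Fmo2 (-2.51) follow one another, and Aldh1a1 (0.49) and Aldh1a7 (-0.40) point in opposite directions.

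Of the 4 carbonyl reductases 0 passed in limma, where 1.27% of all genes were lower and 2.39% higher. An unadjusted p under 0.05 was reached by 1, Cbr1. Cbr1, which reduces quinones and prostaglandins, had 8.27 in both PBS arrays and 7.78 and 7.92 after LPS, a difference of -0.43 (SE 0.0931, limma adjusted p = 0.0547). Its neighbour Cbr3 had -0.01. Cbr2 had 8.18 and 8.63 after PBS and 7.93 and 8.58 after LPS, so its groups overlapped, with a difference of -0.15 (95% interval -0.66 to 0.36). Cbr4 had 8.10 and 8.42 after PBS and 8.37 and 8.19 after LPS, also with overlap, and a difference of 0.02 (95% interval -0.27 to 0.32).

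Dim and bright members were also counted apart. Of the 57 members, 12 had a mean below the lower quartile of all genes, among them Adh4, Adh6a, Adh6-ps1, Adh7, Fmo4, Fmo9, Aldh5a1 and Aldh8a1 and 4 of the Gst genes. Of these 12, 0 passed in limma, where 1.27% of all genes were lower and 2.39% higher. At an unadjusted p under 0.05 there were 0 of them, and their median difference was -0.03. Of the 45 above the quartile, 38 (84.4%) had a negative difference, with a median of -0.23; over all genes above it these were 56.3% and -0.02.

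Genes that supply glutathione or respond to the oxidative stress regulator NRF2 did not move together. Of 20 measured, 1 rose and 1 fell, with a median of 0.00, where 2.39% of all genes rose and 1.27% fell. Nqo1, a quinone reductase and classical NRF2 target, had 8.48 in both PBS arrays and 7.77 and 7.72 after LPS (difference -0.74, SE 0.0864, limma adjusted p = 0.00318). Gpx3, the secreted glutathione peroxidase, had 10.49 and 10.72 after PBS and 11.41 and 11.09 after LPS (difference 0.64, SE 0.133, limma adjusted p = 0.0442). Nqo1 passed with any 1 array left out, whereas the call of Gpx3 ended when PBS replicate 1 (adjusted p = 0.0675) or LPS replicate 1 (adjusted p = 0.131) was left out. The glutathione synthesis genes Gclc (-0.30), Gclm (-0.06) and Gss (0.00), the regulator gene Nfe2l2 itself (0.00) and Hmox1 (0.19) did not pass.

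Other enzymes that add or expose reactive groups, their conjugating partners and their receptors held 1 rise and 1 fall among 23 measured, with a median of -0.05. Of all genes 2.39% rose and 1.27% fell. Cyp1b1, a cytochrome P450 controlled by the aryl hydrocarbon receptor, had 8.92 and 9.17 after PBS and 10.12 and 10.34 after LPS, 2.28-fold higher (difference 1.19, SE 0.122, limma adjusted p = 0.00165). Ephx1, the microsomal epoxide hydrolase, had 8.87 and 9.03 after PBS and 8.12 and 8.16 after LPS (difference -0.80, SE 0.0955, limma adjusted p = 0.00342). Both passed with any 1 array left out. In 11 of the 23 both LPS arrays lay below both PBS arrays, against 24.5% of all genes. Among them were Mgst1 (-0.21), Mgst2 (-0.45) and Mgst3 (-0.39), membrane-bound relatives of the transferases, none of which passed. In 3 both lay above, against 20.4% of all genes, namely Cyp1b1 and, without passing, Ahr (0.41) and Akr1b8 (0.32).

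Retinoid handling genes, which supply the substrate of Adh1 and Aldh1a1 or respond to its product, held 0 of 18 past the threshold in limma. The shares over all genes were 1.27% lower and 2.39% higher. At an unadjusted p under 0.05 were 3 of the 18 (Rara, Rdh10 and Rxra). The median was -0.07. Dhrs3, which turns retinal back to retinol, had a difference of 0.08 and Dhrs9 of -0.22.

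Marrow is a mixture, and in these bulk samples fewer cells of a type and less RNA per cell cannot be told apart. Neutrophil, erythroid and B-cell markers, which define marrow, were present, with mean log2 values of 12.70 to 13.02, 11.63 to 11.92 and 10.18 to 10.59 over the arrays. Hepatocyte markers, listed because liver is rich in these enzymes, had 6.46 to 6.58, near the lower quartile of all genes, with 0 of 8 past the threshold in limma and 0 at an unadjusted p under 0.05. Both LPS arrays lay below both PBS arrays in 6 of 10 neutrophil, 6 of 9 erythroid and 4 of 10 B-cell markers, against 24.5% of all genes. The medians of these lists were -0.13, -0.18 and -0.23, and all 10 B-cell differences were negative. Of these, 1 neutrophil marker (Retnlg, -0.76), 0 erythroid and 0 B-cell markers passed in limma. At an unadjusted p under 0.05 were 3 neutrophil and 2 erythroid markers and the B-cell markers Igll1, Ebf1 and Vpreb1. All counts of markers past the threshold, those above and those that follow, stand against 1.27% of all genes lower and 2.39% higher. Of 14 macrophage markers 5 were lower, namely Cd163 (-2.41), Slc40a1 (-1.89), Mrc1 (-1.72), Vcam1 (-0.79) and Mertk (-0.54), and Adgre1 (0.56) and Spic (1.49) were higher. Their summed linear level was 19853 to 20054 after PBS and 14529 to 16073 after LPS. Of 12 endothelial markers 3 were lower, namely Stab2 (-1.26), Tek (-0.89) and Flt4 (-0.57), and 1 was higher, Egfl7 (0.59). In 4 of the 12 both LPS arrays lay below both PBS arrays, in 4 both lay above, and the median was 0.09. The endothelial sums were 8289 to 8388 after PBS and 8296 to 8357 after LPS. Mesenchymal stroma had 2 of 14 lower, Lepr (-0.59) and Grem1 (-0.50), and 0 higher. In 3 of the 14 both LPS arrays lay below both PBS arrays, in 3 both lay above, and the median was 0.02. The stromal sums were 16580 to 33267 after PBS and 24677 to 26565 after LPS.

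Of 9 adipocyte markers 1 was lower, Pparg (-0.87), and 0 higher, with sums of 6675 to 7925 after PBS and 4634 to 7089 after LPS. In 3 of the 9 both LPS arrays lay below both PBS arrays, in 0 both lay above, and the median was -0.29. Of 6 eosinophil markers 1 was lower, Ccr3 (-1.59), and 0 higher, with sums of 11570 to 12898 after PBS and 9456 to 12078 after LPS. Ccr3 was the only 1 of the 6 with both LPS arrays below, 0 had both above, and the median was -0.09. Over all genes 24.5% lay below and 20.4% above in this way. RMA values have no zero. The adipocyte hormone gene Lep lay below the lower quartile, as did 6 of the 8 hepatocyte markers, and no other marker did. Marker levels also differed between replicates. The mean log2 value of the stromal list was 9.61 in PBS replicate 1 and 10.20 in PBS replicate 3, and of the 57 members 33 were lower in the first of these arrays (among them Fmo2, Fmo1, Gsta4 and Cbr2) and 24 higher (among them Gstp1, Aldh2, Fmo5 and Adh6b). The adipocyte list was 8.54 in LPS replicate 1 and 9.12 in LPS replicate 2, with Cbr2 lower in the first and Fmo2 lower in the second. The part of these markers in the differences of the enzymes was not tested.

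**Figure D4:**
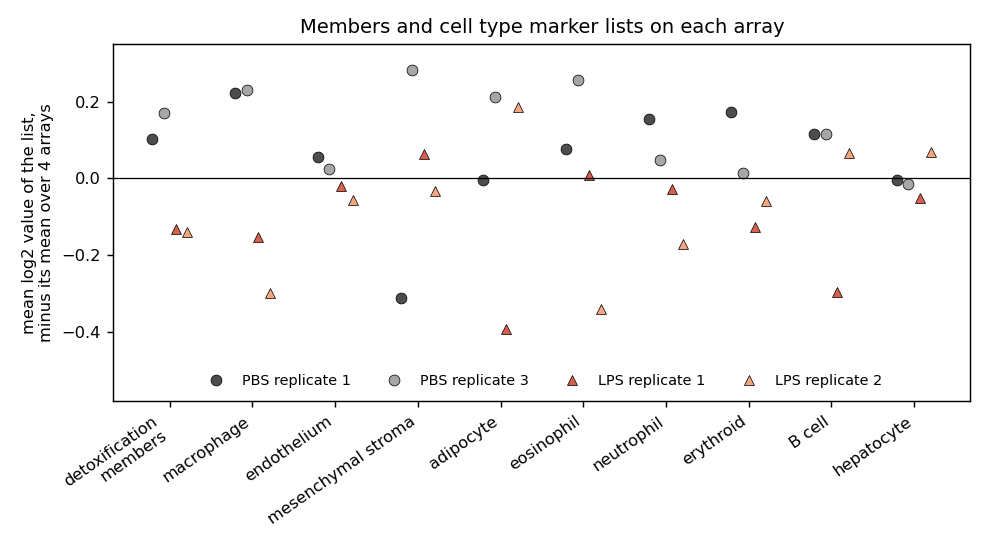
Mean log2 value of the 57 detoxification genes and of each cell type marker list on each array, minus the list's mean over the 4 arrays (vertical axis); circles are PBS and triangles LPS. The detoxification genes are lower on both LPS arrays, as are the macrophage, endothelial, eosinophil, neutrophil, erythroid and B-cell lists, while in the stroma and adipocyte lists the groups overlap.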

How the data were processed

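RNA of 4 bone marrow samples (2 PBS, 2 LPS) was measured on 1 array each. The authors deposited 1 log2 value per probe set and array, made with RMA (background correction, quantile normalization, summary per probe set), per the submitters' processing notes; the version and annotation behind it are not stated in the labels. Quantile normalization removes shifts shared by a whole array. The log2 scale was read from the values, 2.76 to 14.52 over 35556 probe sets. Platform annotation named 21789 probe sets by 1 symbol, 1621 by several and 12146 by none. The brightest single-symbol probe set stood for each of 19938 genes, and all 57 members were found in the RefSeq table of GRCm38.p6. Depth does not apply to arrays; their number limits the precision.

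LPS and PBS were compared with limma 3.58.1 in R 4.3.3 (lmFit, eBayes, two-sided, no covariate, no filter; 5.59 prior and 2 residual degrees of freedom), adjusted over all genes (Benjamini-Hochberg), and the code was tested on simulated data. SEs and intervals are those of this fit. An exact permutation test of 2 against 2 arrays cannot give a two-sided p below 0.333. Named in full were Fmo2, Adh1, Cmbl, members past the threshold and the 2 of each family with the highest mean; of each pathway list, up to 3 genes past the threshold in each direction, or else the 2 with the highest mean. Other members were named after their values were seen. Members, gene lists and motifs were chosen with earlier results of these data known. Promoters come from RefSeq. Proteins were not used here. Python 3.11.15 with matplotlib 3.10.9 made the plots.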

Additional observations from a re-analysis of the deposited data

How the results depend on the processing

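Most calls depended on the error model and on single arrays. Without moderation of the variances 0 members were higher and 0 lower, with 9 at an unadjusted p under 0.05. The pathway genes also had 0 higher and 0 lower, as did all 19938 genes. With all probe sets in the fit 0 members were higher and 3 lower, and 1 pathway gene was higher. The 3 are the genes that prompted the group, so their count is no support. Calls over all 19938 genes were fewer there too, 245 higher and 45 lower, against 476 and 254 in the fit used above. At an adjusted p under 0.01 the counts were also 0, 3 and 1, where 286 of all genes were higher and 58 lower. Leaving out 1 array at a time gave 0 to 1 members higher, 5 to 14 lower, 1 to 3 pathway genes higher and 2 to 4 lower. The number of all genes past the threshold also changed with the array left out, so changes in these counts are not particular to the members. The number of members with a negative difference was 41 to 47 without 1 array. The median difference of the members ran from -0.235, over genes above the lower quartile, to -0.116 without PBS replicate 3. Among the 17 members named by the rule, differences that changed sign without 1 array, none of which passed, were those of Adh5 (-0.062 to 0.097), Cbr2 (-0.478 to 0.177), Cbr4 (-0.136 to 0.180) and Gstp1 (-0.465 to 0.059). No paired analysis was possible because the groups share only replicate number 1. A fit without 1 array assumes that the lone sample of a group varies like the others.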
